A study of Mus musculus with 6 samples.

Results

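Cycling keratinocytes of mouse skin were examined as single cells. They were chosen by their RNA: a summed level of Krt5, Krt14, Krt15, Krt1 and Krt10 of at least 50 UMIs (unique molecular identifiers, each standing for 1 captured RNA molecule) per 10000 UMIs of the cell, no UMI of the leukocyte genes Ptprc and Cd3e, and at least 1 UMI each of Mki67 and Top2a. The rule found 793 cells among 6976 keratinocytes that met its other terms and among 21178 cells in all. The measured values of these 9 genes made the choice, so their levels describe the rule and are not a result.

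The skin came from 6 mice of the NINJA strain, aged 6 to 12 weeks, which carries an inducible neoantigen. The skin of every mouse, the antigen-off mice included, had been treated with 4-OH-Tam (4-hydroxytamoxifen). The labels name 3 groups of 2 mice: NO_AG (antigen off), AG (antigen on) and AG_CPI (antigen on with CPI, an abbreviation that they leave unexplained). Every mouse had been checked for its skin phenotype and for P14 CD8 T cells in the skin before sequencing (10x Genomics 5′ kit). The labels give neither dose, time nor sex, and the 2 mice of a group are its only replicates.

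Keratinocytes divide mainly in the basal layer of the epidermis and in the hair follicle, where cells attached to the basement membrane express Krt5 and Krt14. A dividing cell copies its DNA in S phase with the help of genes such as Mcm6, Pcna and Rrm2, and separates its chromosomes after G2 with the help of Cdk1, Ccnb1, Ube2c and Cdc20. Cells that leave the basal layer stop dividing and switch to differentiation genes such as Krtdap and Sbsn, and keratinocytes of any stage can answer interferons, signalling proteins released during infection and T cell attack.

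Promoter sequences are shown first for the genes on which the results turn: 4 of the 6 genes that rose in the cycling cells of AG mice, and 2 mitotic genes that mark the cells. The other 2 of the 6, Ifi27l2a and Rtp4, had no entry in the RefSeq promoter table (build GRCm38.p6). Each line gives 150 bases before the transcription start to 30 bases after it, 5′ to 3′ on the gene's own strand. For the interferon group, capitals mark matches on either strand to GAAA, any 2 bases and GAAA again (the core of the interferon-stimulated response element, ISRE) or TTCNNNGAA (the gamma-activated sequence, GAS).
Isg15, chr4:156200789-156200968, minus strand: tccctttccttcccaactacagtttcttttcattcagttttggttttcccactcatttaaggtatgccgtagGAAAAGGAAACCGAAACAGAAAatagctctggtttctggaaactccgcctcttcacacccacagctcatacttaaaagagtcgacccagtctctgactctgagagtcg
Ifitm3, chr7:141010715-141010894, minus strand: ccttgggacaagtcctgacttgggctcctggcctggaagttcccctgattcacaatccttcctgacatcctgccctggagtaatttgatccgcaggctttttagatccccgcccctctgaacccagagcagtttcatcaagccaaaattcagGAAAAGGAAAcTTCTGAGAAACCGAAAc
Bst2, chr8:71537443-71537622, minus strand: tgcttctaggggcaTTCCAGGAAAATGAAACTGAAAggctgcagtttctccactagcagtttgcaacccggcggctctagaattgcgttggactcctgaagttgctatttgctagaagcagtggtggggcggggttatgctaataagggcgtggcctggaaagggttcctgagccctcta
Cxcl9, chr5:92328050-92328229, minus strand: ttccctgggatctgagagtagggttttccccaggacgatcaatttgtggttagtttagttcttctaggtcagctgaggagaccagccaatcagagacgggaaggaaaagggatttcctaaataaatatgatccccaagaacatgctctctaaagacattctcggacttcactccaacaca
In the mitotic pair, capitals mark matches on either strand to TTTGAA or TTCGAA (the cell cycle genes homology region, CHR) or to CCAAT (the CCAAT box).
Cdc20, chr4:118437314-118437493, minus strand: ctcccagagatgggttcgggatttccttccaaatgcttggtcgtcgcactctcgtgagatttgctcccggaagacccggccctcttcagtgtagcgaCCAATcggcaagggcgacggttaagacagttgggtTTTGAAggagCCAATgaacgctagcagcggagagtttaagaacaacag
Ube2c, chr2:164769779-164769958, plus strand: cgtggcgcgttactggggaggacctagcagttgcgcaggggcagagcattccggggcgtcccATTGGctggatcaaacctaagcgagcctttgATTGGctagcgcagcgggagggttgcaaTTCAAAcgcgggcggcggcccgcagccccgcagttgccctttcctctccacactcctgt

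Isg15 held 3 overlapping ISRE matches that began 78, 72 and 66 bases before the start. Bst2 held 2 overlapping ISRE matches and a GAS match that overlapped the first of them, and Ifitm3 held 2 ISRE matches and a GAS match downstream of its start. The printed window of Cxcl9 contained neither set of letters. Over windows of 250 bases before to 50 after the start, 3.44% of all 32851 promoters held an ISRE match and 8.30% a GAS match. Among the tested genes of the type I interferon list, 19 of 24 were matched to the table, and 10 of their 20 promoters held an ISRE match. Of the 59 G2/M genes, 50 were matched, and 38 of their 54 promoters (70.4%) held both a CHR match and a CCAAT box, against 7.53% of all promoters. Of the 46 S phase genes, 35 were matched, and 5 of their 41 promoters (12.2%) held both. These are matches of letters, and no binding was measured.

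The label was checked against Cdc20, a mitotic activator that the rule did not use. Among cycling keratinocytes, a Cdc20 UMI was present in 58.0% and 51.4% (NO_AG), 68.7% and 29.7% (AG) and 57.1% and 45.0% (AG_CPI). Among the other keratinocytes of the same libraries the shares ran from 4.47% to 11.7%. The higher share among the chosen cells held in all 6 mice, and it was smallest in AG 2. Krt14 and Krt5 were high in these cells by the rule itself. The suprabasal keratins Krt1 and Krt10 together exceeded Krt5, Krt14 and Krt15 in 1 cell of NO_AG 1 and in 4 of the 20 cells of AG_CPI 2, and in none of the other libraries.

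Library AG 2 stood apart from the rest. In AG 2 the cycling keratinocytes had a median of 2808 UMIs, against 6749 to 10392 in the other 5 libraries, and 5.46% mitochondrial UMIs, against 2.71% to 4.07%. In that library 85.0% of them had a UMI from a wider list of leukocyte genes, against 30.2% to 71.4% elsewhere, and 91 of its 273 cells met the rule with exactly 1 UMI each of Mki67 and Top2a. The AG_CPI mice gave only 14 and 20 cycling keratinocytes, and AG_CPI 1 was the one library whose keratinocytes had UMIs of the Y-linked gene Ddx3y (5 in its cycling cells). Between 44 and 119 cell barcodes of each library also occurred in another library. Of cells that met the keratin and cycling terms, 343 were left out for a UMI of Ptprc or Cd3e, 147 of them in AG 2 and 136 in NO_AG 2. At the keratin bound the lowest cell kept had 50.1 UMIs per 10000 and the highest left out 49.96. Another 703 keratinocytes had a UMI of Mki67 without Top2a, and 583 of Top2a without Mki67.

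The first comparison asked how large a share of the keratinocytes was cycling. Cycling cells were 205 of 2327 keratinocytes in NO_AG 1 (8.81%, exact 95% binomial interval 7.69% to 10.0%) and 214 of 1773 in NO_AG 2 (12.1%, 10.6% to 13.7%). In AG 1 they were 67 of 997 (6.72%, 5.25% to 8.46%), the lowest share, and in AG 2 they were 273 of 1454 (18.8%, 16.8% to 20.9%), the highest. In AG_CPI 1 they were 14 of 159 (8.81%, 4.90% to 14.3%), and in AG_CPI 2 they were 20 of 266 (7.52%, 4.65% to 11.4%). The 2 AG mice lay on either side of both NO_AG mice. The intervals cover counting error only.

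Group means were 10.4% ± 2.31 (SD, n = 2) in NO_AG, 12.7% ± 8.52 (n = 2) in AG and 8.16% ± 0.910 (n = 2) in AG_CPI. AG exceeded NO_AG by 2.31 percentage points (exact permutation test over mice, two-sided p = 1, n = 2 per group). AG_CPI lay below AG by 4.59 points (exact permutation p = 1) and below NO_AG by 2.28 points (exact permutation p = 0.333, the smallest p that 2 against 2 mice can give). No p of this design can fall below 0.05. Without AG 2 the AG share was 3.72 points below NO_AG, and AG_CPI was 1.44 points above AG, so both directions changed without that library. With a wider list of leukocyte genes barred, AG_CPI lay below AG by only 0.665 points and above NO_AG by 0.994 points, and among cells of at least 3000 UMIs by 0.861 points.

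A share of cells with a UMI also reads the depth of the cells. Every cell was thinned to 1500 UMIs and the whole rule was applied again, so cells that lost their Ptprc or Cd3e UMIs could enter. Keratinocytes then numbered 1668 in AG 2, against 1454 before, and 1951 in NO_AG 2, against 1773. The shares after thinning were 3.06% and 4.41% (NO_AG), 2.11% and 9.05% (AG) and 3.05% and 3.51% (AG_CPI), and AG 2 kept the highest share. With the wider leukocyte list barred it did not: the shares were 7.84% and 7.81% (NO_AG), 6.69% and 12.3% (AG, 41 of 334 cells in AG 2) and 4.30% and 13.3% (AG_CPI), with AG_CPI 2 highest at 12 of 90 cells. The same pair of genes was also read outside the keratinocytes: among myeloid cells (Lyz2 and Ptprc present, Cd3e absent, keratin sum under 50) both Mki67 and Top2a were found in 4 of 369 in AG 2, where the median depth of those cells was 3852 UMIs. The counts in the other libraries were 0 of 37 and 1 of 23 in NO_AG, 0 of 129 in AG 1, and 2 of 191 and 0 of 173 in AG_CPI, at medians of 4283 to 7492 UMIs. Among T cells (Cd3e present, keratin sum under 50) both genes were found in 222 of 1345 (16.5%) in AG 2 and in 6.21% to 12.2% in the other libraries. The median depth of those T cells was 2652 UMIs in AG 2, within the 2332 to 2759 of the others. In AG 2, 54.2% of keratinocytes had a UMI of at least one of Mki67 and Top2a, against 20.4% to 27.7% in the other libraries. Summed G2/M genes averaged 33.8 UMIs per 10000 in its other keratinocytes, against 13.4 to 17.3 elsewhere. The part of depth and free RNA in the share of AG 2 was not tested.

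**Figure D1:**
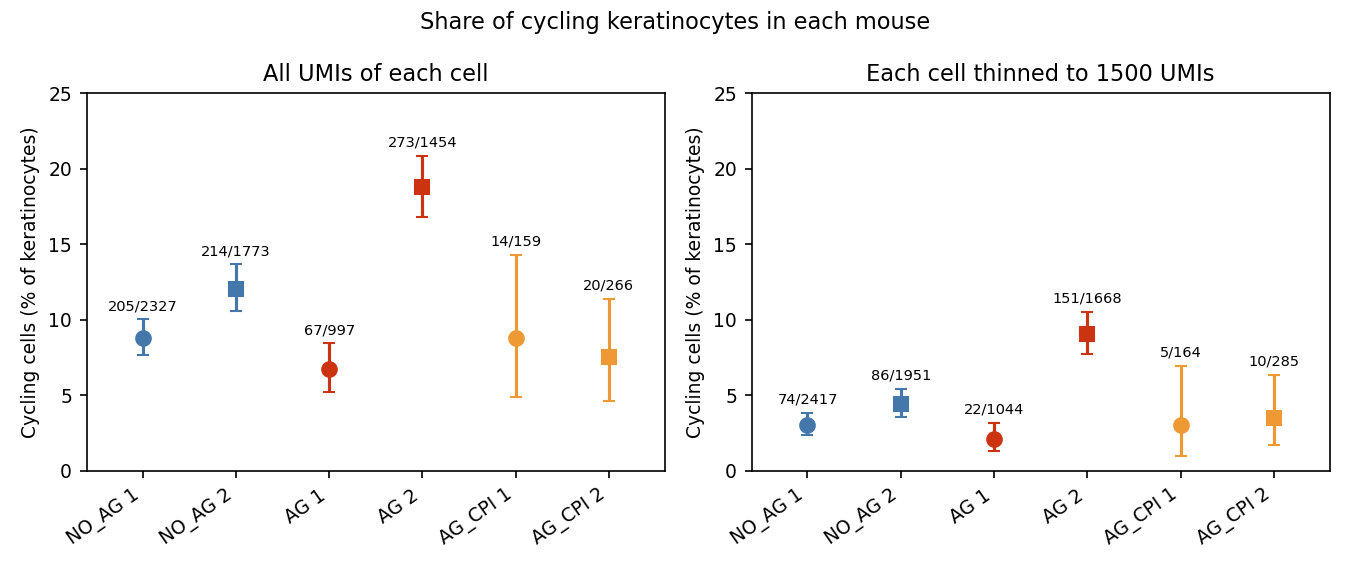
Percentage of keratinocytes that met the cycling rule in each mouse (y axis), with all UMIs of a cell (left) and with every cell thinned to 1500 UMIs (right); bars are exact 95% binomial intervals, and the numbers are cycling cells over keratinocytes. AG 2 is highest and AG 1 lowest in both panels, and the other 4 mice lie between them.

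Next, the phase of the cycle was read from 46 S phase genes and 59 G2/M genes, with Mki67 and Top2a left out. Summed over the S phase genes, cycling cells averaged 37.8 and 43.2 UMIs per 10000 (NO_AG), 37.0 and 26.0 (AG) and 27.8 and 31.9 (AG_CPI). The G2/M genes summed to 130.3 and 100.8 (NO_AG), 122.3 and 64.3 (AG) and 107.2 and 98.5 (AG_CPI). Both sums were lowest in AG 2. In the S phase sums the AG and AG_CPI mice all lay below both NO_AG mice, with AG 1 within 1 UMI per 10000 of the nearer one. The S phase mean was 40.5 ± 3.85 (SD, n = 2) in NO_AG, 31.5 ± 7.79 in AG and 29.9 ± 2.85 in AG_CPI. For G2/M the means were 115.5 ± 20.9 in NO_AG, 93.3 ± 41.0 in AG and 102.8 ± 6.15 in AG_CPI. The differences had two-sided p from 0.333 to 1 (exact permutation test over mice, n = 2 per group). Without AG 2 the G2/M difference between AG and NO_AG turned from a decrease to an increase of 6.76.

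**Figure D2:**
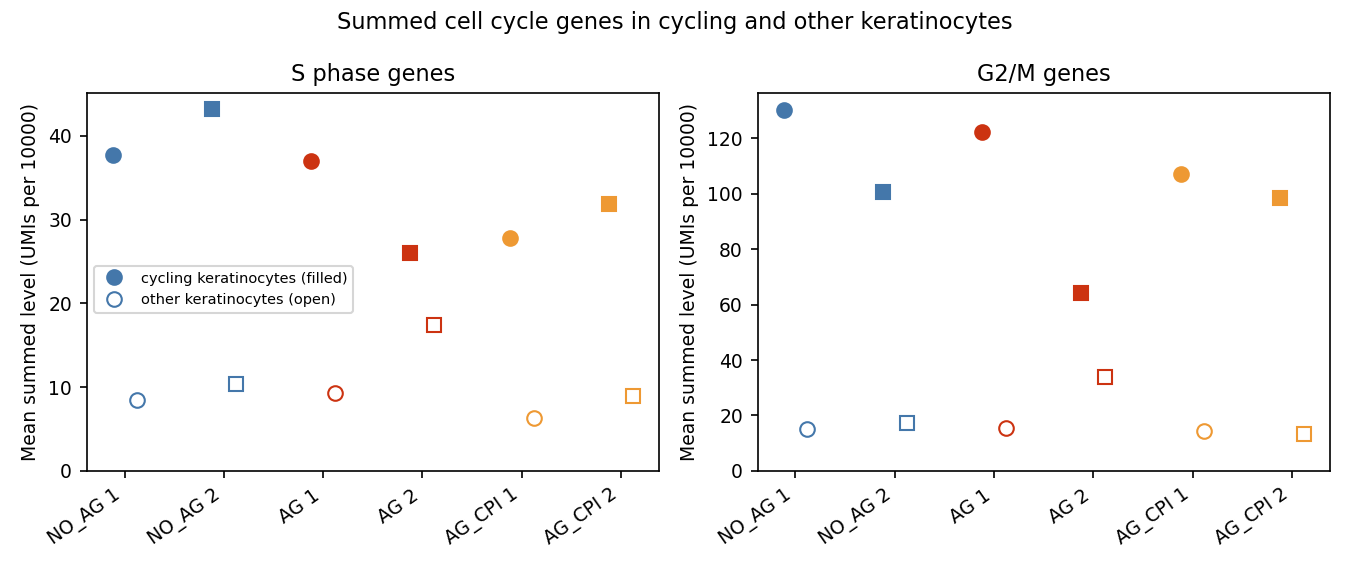
Mean summed level of S phase genes (left) and G2/M genes (right) per mouse in UMIs per 10000, in cycling keratinocytes (filled) and other keratinocytes (open), with colours for the groups. The filled points lie above the open points in every mouse, with the smallest gap in AG 2, where the G2/M sums are 64.3 and 33.8.

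Ube2c, Ccnb1 and Cdk1 of the mitotic genes overlapped between AG and NO_AG. Levels of single genes are mean UMIs per 10000 of the cycling cells, scaled between libraries, with both mice of a group given in order. Ube2c, which loads ubiquitin for the anaphase-promoting complex, averaged 6.61 and 4.47 (NO_AG), 7.49 and 2.95 (AG) and 5.15 and 3.37 (AG_CPI). Ccnb1, the cyclin that starts mitosis, averaged 1.61 and 1.19 (NO_AG), 2.09 and 0.932 (AG) and 1.98 and 1.57 (AG_CPI). For Cdk1, the kinase it binds, the values were 3.08 and 2.16 (NO_AG), 3.09 and 1.50 (AG) and 1.32 and 1.50 (AG_CPI). AG 1 was the highest mouse and AG 2 the lowest for Ube2c and Ccnb1. For Cdk1, AG 1 and NO_AG 1 were close, and on a scaling common to cycling and other keratinocytes they stood at 3.01 and 3.06.

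Among replication genes, Rrm2, a subunit of the enzyme that makes deoxynucleotides, averaged 1.43 and 2.04 (NO_AG), 1.85 and 1.40 (AG) and 1.01 and 1.83 (AG_CPI). Mcm6, part of the helicase that opens DNA, averaged 0.882 and 0.941 (NO_AG), 1.13 and 0.712 (AG) and 0.616 and 0.829 (AG_CPI), and Pcna, the clamp that holds the polymerase, 1.31 and 1.50 (NO_AG), 1.46 and 1.27 (AG) and 0.538 and 1.08 (AG_CPI). The groups overlapped in Rrm2, Mcm6 and Pcna when AG was set against NO_AG. Of the 46 S phase and 59 G2/M genes, none passed the test in any comparison (limma on log2 means per mouse, Benjamini-Hochberg adjusted p of 0.05 over 7864 genes). Their median log2 change from NO_AG to AG was -0.31 for S phase and -0.19 for G2/M, against -0.02 over all genes tested. With AG 2 left out those medians were -0.0042 and 0.19. In 17 of the 46 S phase genes both AG mice were below both NO_AG mice, where 20.7% of all genes tested were, and in none were they above. In 23 of the 46 both AG_CPI mice were below both NO_AG mice, where 30.9% of all genes were.

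Regulators of entry into the cycle did not pass the test either, with 0 of 18 tested inhibitor and p53 target genes and 0 of 17 genes of G1 and growth called in any of the 3 comparisons. Cdkn1a, which blocks the cycle kinases, averaged 1.39 and 1.37 (NO_AG), 0.864 and 1.49 (AG) and 0.261 and 1.37 (AG_CPI). Cyclin D1 (Ccnd1), which carries cells out of G1, averaged 2.02 and 3.33 (NO_AG), 2.67 and 1.15 (AG) and 0.923 and 2.15 (AG_CPI). Ccnd2, its close relative, averaged 2.53 and 3.50 (NO_AG), 2.57 and 2.30 (AG) and 0.694 and 1.14 (AG_CPI), and both AG_CPI mice lay below the other 4 (log2 change from AG -1.36, limma adjusted p = 0.384).

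Set beside the other keratinocytes of the same mouse, the cycling cells differ by the way they were chosen, so what follows is a description without a test. Of 2180 genes at 0.5 UMIs per 10000 or more in one of the 2 populations of every mouse, 328 were higher and 304 lower in cycling cells in all 6 mice. All 36 G2/M and all 17 S phase genes at that level were higher in all 6. Ube2c led with a median log2 ratio of 3.79, followed by the kinetochore protein Cenpf (3.48) and the spindle protein Nusap1 (3.47). The replication clamp partner Pclaf (3.25), the survivin gene Birc5 (3.17) and the spindle midzone protein Prc1 (3.03) were also among the 15 highest. In AG 2 the ratio of Ube2c was 0.94, against 2.63 to 4.69 in the other mice.

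On the lower side, 6 of 11 suprabasal genes were below the other keratinocytes in all 6 mice and none was above. Cst6, a protease inhibitor of the upper hair follicle and cornifying layers, had the lowest median log2 ratio (-3.69), then the defensin Defb6 (-3.64) and Krt79 (-2.59), the keratin of the upper hair follicle. Klk7, a protease of shedding cornified cells, was at -2.37. Krtdap, a product of differentiating keratinocytes, was at -1.59 and lower in 5 of 6 mice, with AG 2 the exception (0.40). Sbsn was lower in all 6 mice (-1.15).

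Krt79 showed how far the 2 populations lay apart under AG_CPI. Cycling cells had 3.01 and 2.60 UMIs per 10000 (NO_AG), 4.35 and 16.6 (AG) and 0.297 and 0.585 (AG_CPI), where the last values rest on 3 and 3 UMIs. The other keratinocytes had 12.7 and 11.1, 39.0 and 24.2 and 40.1 and 55.5. Both AG_CPI mice had the lowest levels in cycling cells and the highest in the others. The test of a change that differed between the populations is given further on, and it did not call Krt79.

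Growth regulators lay on both sides. Cdkn1a was lower in cycling cells in 6 of 6 mice (median log2 ratio -0.80), and so was Myc (-0.89), a driver of growth. Ccnd1 was higher in 6 of 6 (0.59). Of 12 basal adhesion genes at that level, 2 were higher and none lower in all 6 mice. Trp63, the factor that maintains the basal state, had a median ratio of -0.23 and Itga6, an integrin of the basement membrane, one of 0.07. Igfl3, a small secreted growth factor-like protein, was lower in cycling cells in all 4 mice with the antigen on. Other keratinocytes had 1.30 and 1.28 UMIs per 10000 in AG and 1.41 and 2.19 in AG_CPI. Cycling cells had 0.0109 and 0.706 in AG and 0.0577 and 0 in AG_CPI. It had 1 UMI in 67 cycling cells of AG 1, 69 in AG 2, 1 in AG_CPI 1 and 0 in the 20 of AG_CPI 2, which allows up to 15% of such cells with a UMI.

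**Figure D3:**
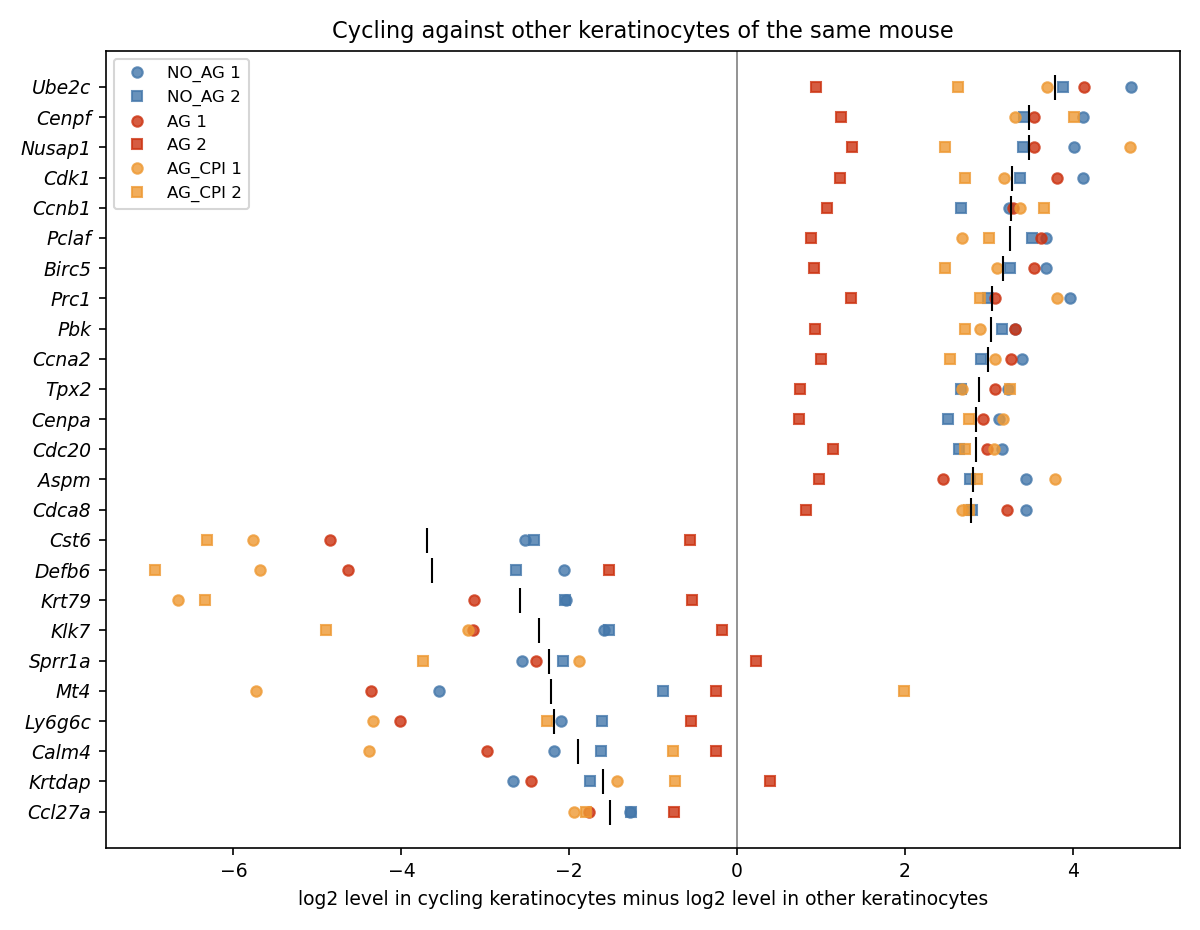
Log2 level in cycling minus log2 level in other keratinocytes (x axis) for the 15 genes with the highest and the 10 with the lowest median ratio, 1 point per mouse and a black tick at the median. Ube2c has the highest median (3.79) and Cst6 the lowest (-3.69), and AG 2 lies nearest to 0 for all of these genes.

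The comparison of AG with NO_AG asked which genes of the cycling cells differ when the antigen is on. 6 of 7864 genes tested passed (0.0763%, limma, adjusted p of 0.05, both mice of AG above both of NO_AG), all higher in AG, and all 6 are known as interferon-induced genes. Changes are on the log2(level + 0.1) scale, which understates those of low genes. Isg15, a ubiquitin-like protein, averaged 0.256 and 0.374 (NO_AG), 3.73 and 7.18 (AG) and 1.92 and 1.82 (AG_CPI). Both AG mice were far above both NO_AG mice, with AG_CPI between. The log2 change from NO_AG to AG was 3.69 ± 0.34 (SE, limma adjusted p = 0.0298).

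Cxcl9, the chemokine that draws T cells carrying Cxcr3, averaged 0.425 and 0.485 (NO_AG), 4.83 and 5.43 (AG) and 0.773 and 1.67 (AG_CPI). It rose by 3.24 ± 0.35 on the log2 scale (limma adjusted p = 0.0311). Ifitm3, a membrane protein that hinders virus entry, averaged 5.69 and 6.09 (NO_AG), 23.5 and 26.8 (AG) and 17.0 and 16.5 (AG_CPI) and rose by 2.07 ± 0.22 (limma adjusted p = 0.0311). Neither gene overlapped between the 2 groups.

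Ifi27l2a, an interferon-induced protein, averaged 1.39 and 1.93 (NO_AG), 19.6 and 13.8 (AG) and 4.08 and 8.79 (AG_CPI), a log2 change of 3.25 ± 0.38. Bst2, or tetherin, which holds budding virus at the membrane, averaged 0.250 and 0.394 (NO_AG), 2.70 and 3.24 (AG) and 0.510 and 0.913 (AG_CPI), a change of 2.88 ± 0.34. Rtp4, a chaperone induced by interferon, averaged 0.0392 and 0.120 (NO_AG), 1.27 and 1.36 (AG) and 0.516 and 0.601 (AG_CPI), a change of 3.02 ± 0.35. All 3 had limma adjusted p = 0.0337. Rtp4 reached the filter on low values only through the 2 AG mice, where it is high, so its call is no independent support. The other 5 called genes passed the filter without the AG mice. Without NO_AG 1, AG 1 or AG 2 no gene passed, and without NO_AG 2 there were 3. The log2 change of Isg15 lay between 3.23 and 4.15 when single mice were left out.

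Weighting each library by its counts (voom) called 83 higher genes (1.06% of those tested) and 4 lower in AG, the 6 above among them. Of the 83, 49 passed the filter without the AG mice. With AG 2 left out it called 52 in all, 37 of them shared with the 87. The 4 lower genes, named here after their values were seen, were Gnmt, Nrep, Clca3a2 and Nrtn. Clca3a2, a protein of the calcium-activated chloride channel regulator family, averaged 6.77 and 4.52 (NO_AG), 2.34 and 1.60 (AG) and 1.25 and 2.95 (AG_CPI), with the AG and NO_AG mice apart (voom adjusted p = 0.0399).

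The type I interferon list had 24 of its 37 genes tested. A gene was tested if it reached 10 UMIs and a mean of 0.1 UMIs per 10000 in 2 libraries, and 12 of the 24 did so only with the AG mice, which favours genes high in AG. Of the other 12, 3 rose under limma (Isg15, Bst2 and Ifi27l2a) and 10 under voom, which called 0.665% of all genes that pass outside AG higher. The median log2 change of 2.02 over all 24 is therefore a description of the genes tested. With no filter on low values, all 35 genes of the list in the files had a positive change, with a median of 1.54 against -0.02 over 13581 genes. The 12 genes that reached the level in libraries outside AG had a median of 1.62, or 1.44 without AG 2 and 2.03 without AG 1. Irf9, a subunit of the factor that type I interferon switches on, was among the 10. Ifit1, an inhibitor of viral translation, averaged 0.00377 and 0.0106 (NO_AG), 0.535 and 1.30 (AG) and 0 and 0.0564 (AG_CPI), and its 0 in AG_CPI 1 is a lack of UMIs in 14 cells. Oasl2, of the family that senses viral RNA, averaged 0.0315 and 0.0475 (NO_AG), 0.945 and 1.54 (AG) and 0.671 and 0.147 (AG_CPI). Ifit1 and Oasl2 were among the 12 that reached the filter only with the AG mice, so their values are no independent support.

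Of the interferon-gamma list, 19 of 36 genes were tested, with a median log2 change of 1.07. 6 of the 19 were tested only with the help of the AG mice. Of the other 13, Cxcl9 passed in limma and 6 under voom. Of all 7368 genes that pass outside AG, limma called 5 higher and voom 49. With no filter 28 of 29 genes were positive, with a median of 0.85, where 6425 of all 13581 genes were positive. Gbp2, a GTPase that attacks the vacuoles of intracellular microbes, averaged 0.335 and 0.313 (NO_AG), 2.25 and 2.44 (AG) and 0.513 and 1.01 (AG_CPI). Cxcl10, the partner of Cxcl9, averaged 0.446 and 0.467 (NO_AG), 2.53 and 3.21 (AG) and 0.0509 and 0.273 (AG_CPI). For Gbp2 and Cxcl10 the limma adjusted p from NO_AG to AG was 0.0669 and 0.18, with both AG mice above both NO_AG mice. Irf1, a transcription factor of the same response, averaged 0.358 and 0.336 (NO_AG), 0.707 and 0.515 (AG) and 0.233 and 0.315 (AG_CPI) (log2 change 0.66, limma adjusted p = 1). Cd274, the gene of PD-L1, was too low to test, with 0.0288 and 0.0343 (NO_AG), 0.0452 and 0.177 (AG) and 0 and 0.0478 (AG_CPI).

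For antigen presentation on class I and its peptide supply, 0 of 21 tested genes passed in limma and 9 under voom (1.06% of all genes), with a median log2 change of 0.86. All 21 reached the filter without the AG mice. In 16 both AG mice were above both NO_AG mice, where 19.4% of all genes tested were, and in none were they below. B2m, the light chain of class I, averaged 12.7 and 10.9 (NO_AG), 21.8 and 20.9 (AG) and 18.4 and 15.6 (AG_CPI). H2-K1, a heavy chain, averaged 15.2 and 12.8 (NO_AG), 26.2 and 19.8 (AG) and 17.5 and 16.8 (AG_CPI). Psmb8, a subunit of the immunoproteasome, averaged 2.24 and 2.44 (NO_AG), 6.71 and 4.86 (AG) and 2.51 and 2.27 (AG_CPI). B2m, H2-K1 and Psmb8 had AG mice above NO_AG mice without overlap, at limma adjusted p of 0.765, 1 and 0.226.

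Class II genes, which are made mainly by professional antigen-presenting cells, had 6 of 8 tested, 0 called in limma and 5 under voom. Voom called 1.06% of all genes higher. The median of the list was 1.56, or 1.17 without AG 2. With doublets removed it was 2.10. With the cells holding any UMI of the wider leukocyte list removed, which also took AG_CPI 1 out of the fit, it was 2.82 over 5 tested genes. Cd74, the invariant chain, averaged 2.41 and 3.48 (NO_AG), 7.65 and 11.7 (AG) and 5.03 and 6.04 (AG_CPI). Its highest value was in AG 2, where myeloid marker genes summed to 4.62 UMIs per 10000 in cycling keratinocytes against 0 to 0.853 in the other libraries. In AG 1, with a myeloid sum of 0.0262, Cd74 was above both NO_AG mice. The part of myeloid RNA in the value of AG 2 was not tested.

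Leukocyte RNA in the cycling cells differed between libraries. The wider leukocyte list, whose Ptprc and Cd3e are 0 by the rule, summed to 1.18 and 3.24 (NO_AG), 1.01 and 14.6 (AG) and 11.3 and 3.01 (AG_CPI). The T cell list summed to 0.428 and 1.28, 0.746 and 4.91, and 5.90 and 1.66 in the same order. When cells with any UMI of that leukocyte list were removed, AG_CPI 1 kept only 4 cells and left the fit as well, and 20 genes passed in AG against NO_AG, the 6 above among them. Leaving out AG_CPI 1 alone gave 14, the same 6 among them, so the count of 20 does not belong to the removal of cells alone.

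**Figure D4:**
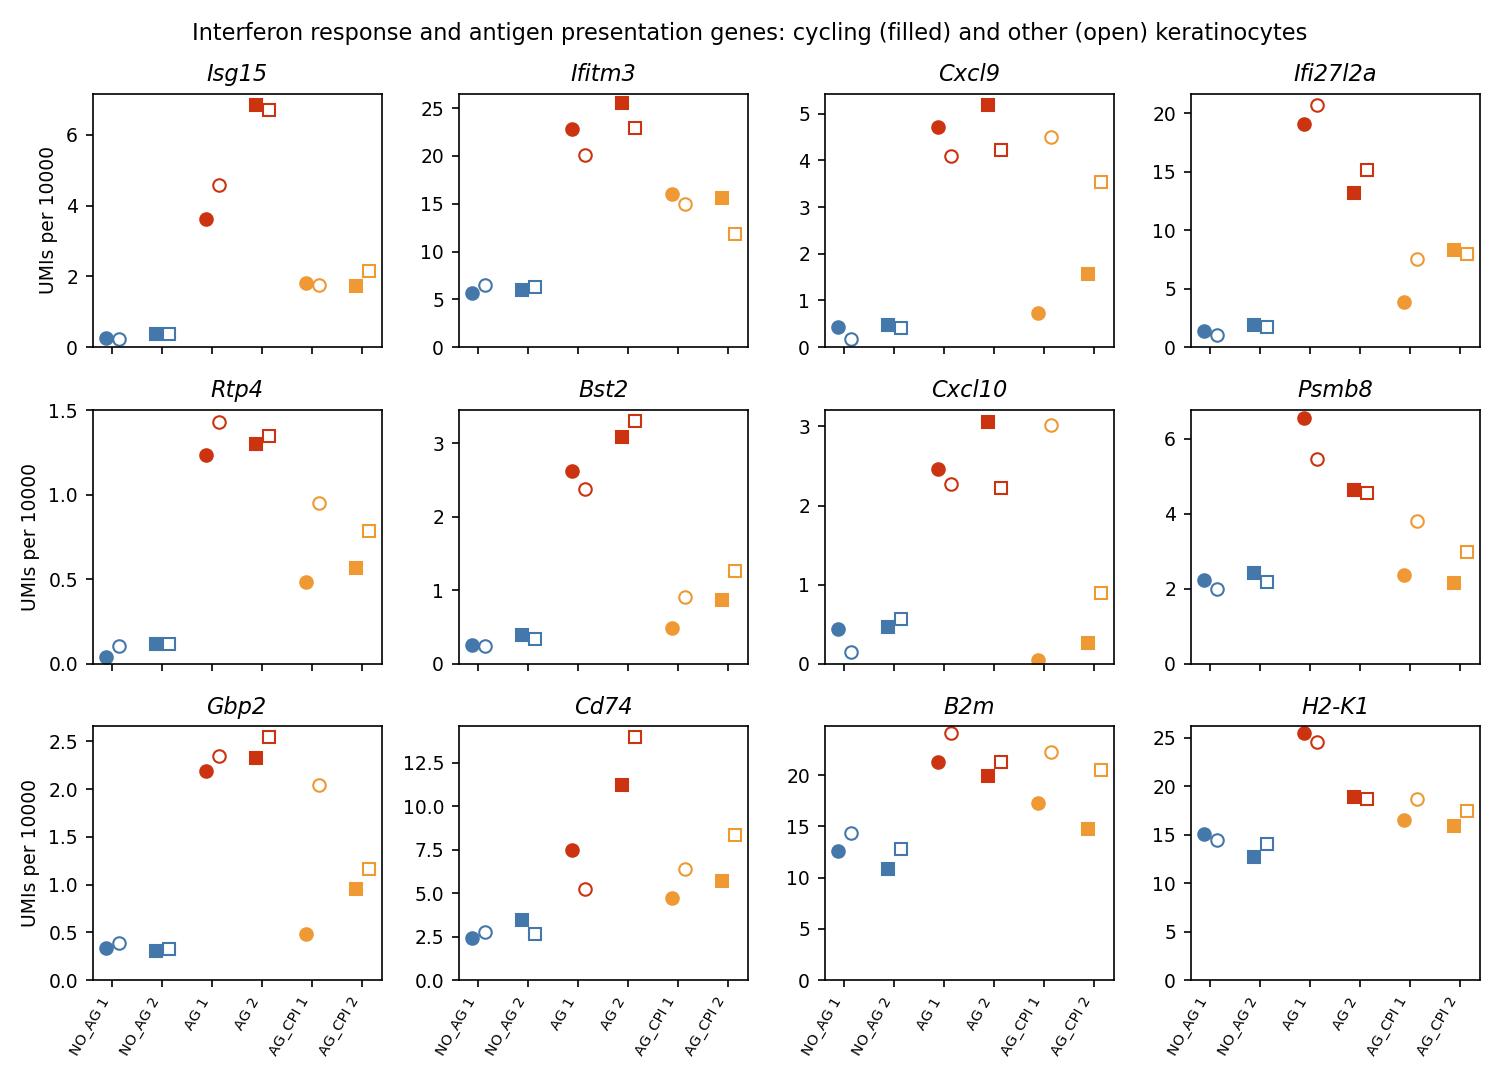
Mean level in UMIs per 10000 (y axis, from 0) of 12 interferon response and antigen presentation genes in each mouse, in cycling (filled) and other keratinocytes (open), both on 1 common scaling. AG mice lie highest and NO_AG mice lowest for Isg15, and in AG_CPI the filled points of Cxcl9 and Cxcl10 lie below the open ones.

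Whether this change was particular to cycling cells was tested as a difference of differences. The change from NO_AG to AG differed between cycling and other keratinocytes for 0 of 7864 genes (0%, limma, 37 at an unadjusted p under 0.05). Isg15 stood at 4.59 and 6.69 in the other keratinocytes of AG and at 3.64 and 6.84 in cycling cells, and the difference of its changes was -0.14 on the log2 scale. For Cxcl9 that difference was -0.28 and for Ifitm3 0.30.

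AG_CPI against AG asked what the added CPI treatment changed, and AG_CPI against NO_AG set the same mice beside antigen-off skin. Limma called 0 of 7864 genes in the first (0%, 862 at an unadjusted p under 0.05) and 0 in the second (0%, 1077 unadjusted). Voom called 1 gene in each, Cxcl9 lower than in AG (log2 change -3.46, voom adjusted p = 0.0419) and Aqp3 higher than in NO_AG (log2 change 3.29, voom adjusted p = 0.0252). Nor did the change differ between cycling and other keratinocytes for any gene in these comparisons (0% and 0%, with 856 and 880 at an unadjusted p under 0.05). The 14 and 20 cells limit all of these values. Both comparisons share the AG_CPI mice, and each shares its other mice with the comparison of AG and NO_AG.

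Isg15, Ifitm3, Cxcl9, Ifi27l2a, Rtp4 and Bst2 all lay between the other groups in both AG_CPI mice. From AG to AG_CPI the 24 tested type I genes had a median log2 change of -1.32, which the part of AG in the filter pulls down. With no filter 1 of 35 was positive, with a median of -1.12 against -0.12 over all genes. The 12 genes that reached the level outside AG had a median of -1.17, or -0.74 with 1 positive without AG 2. From NO_AG to AG_CPI the tested genes had a median of 0.85, against 0.30 with no filter, where 27 of 35 were positive. Without AG_CPI 2 that median was 0.44 with 16 of 24 positive, and in cells of at least 3000 UMIs 0.56 with 20 of 24. The interferon-gamma list had a median of -1.15 from AG and of 0.02 from NO_AG over the genes tested, and of -0.92 and -0.03 with no filter. The value from NO_AG was 0.45 without AG_CPI 2, -0.43 with the wider leukocyte list barred and -1.34 after thinning to 1500 UMIs. After thinning 2 of its 10 tested genes passed, where 409 of all 4452 genes did, 405 of them lower. The median over all those genes was -0.85. Of the 21 class I genes, 15 had both AG_CPI mice below both AG mice, where 24.2% of all genes did, and 11 had them above both NO_AG mice, where 16.0% did. Their median from NO_AG to AG_CPI was 0.30, but -0.12 with 9 of 21 positive when the wider leukocyte list was barred, and -0.17 with 7 of 19 after thinning. The median of all genes tested moved as well and was -0.16, -0.27 and -0.85 in the same order, below the class I median each time.

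The chemokines Cxcl9 and Cxcl10 were lower in cycling than in other keratinocytes of both AG_CPI mice. Cxcl9 averaged 0.728 and 1.57 UMIs per 10000 in cycling cells and 4.50 and 3.53 in the other keratinocytes, and Cxcl10 0.0479 and 0.258 against 3.02 and 0.893. The cycling values rest on 5 and 7 UMIs of Cxcl9 and 1 and 2 of Cxcl10. In AG, Cxcl9 stood at 4.70 and 5.18 in cycling and at 4.10 and 4.21 in other cells. The difference of the changes from AG to AG_CPI was -2.04 for Cxcl9 (limma adjusted p = 0.4) and -3.22 for Cxcl10 (limma adjusted p = 0.4). Among cells with at least 3000 UMIs the log2 change of Cxcl9 from NO_AG to AG_CPI was -0.56, against 1.16 in all cells.

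Other gene groups held values outside the spread of the antigen-off mice. Of 36 stress keratin and alarmin genes 12 were tested, none passed in limma in any comparison, and voom called Stfa1 and Stfa3 higher in AG. The median log2 change of the list was 1.09 from NO_AG to AG and 1.30 from NO_AG to AG_CPI. Both depended on the cells, mice and genes that entered. The first was 0.22 without AG_CPI 2, a mouse of neither group compared, where the filter kept 11 genes instead of 12. It was 2.23 without NO_AG 1 (10 genes), and the second was 0.25 with the wider leukocyte list barred (10 genes). With no filter on low values they were 0.31 and 0.35 over 24 genes. Stfa3, a stefin that inhibits cysteine proteases, averaged 1.66 and 1.65 (NO_AG), 18.2 and 6.39 (AG) and 22.99 and 14.0 (AG_CPI). Stfa1, a related stefin, averaged 0.0859 and 0.0619 (NO_AG), 0.574 and 2.47 (AG) and 8.61 and 3.63 (AG_CPI). All 4 antigen mice were above both NO_AG mice in Stfa1 and Stfa3. Sequences of the stefin family are close to one another, so reads between its members cannot be assigned with certainty.

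Krt6a, the keratin of wounded epidermis, averaged 0.202 and 0.374 (NO_AG), 0.631 and 20.7 (AG) and 8.27 and 5.31 (AG_CPI). Its partner Krt16 averaged 0.111 and 0.0705 (NO_AG), 1.37 and 10.0 (AG) and 0 and 5.63 (AG_CPI). AG 1 was near the NO_AG mice in Krt6a and AG 2 far above them, and the log2 change was 3.37 ± 1.23 (SE, limma adjusted p = 1). The alarmin S100a8 averaged 0.127 and 0.0916 (NO_AG), 0.0278 and 0.284 (AG) and 0.402 and 0 (AG_CPI). Aqp3, a glycerol and water channel of the basal layer, averaged 0.999 and 1.10 (NO_AG), 4.33 and 8.50 (AG) and 7.71 and 16.7 (AG_CPI), with the 4 antigen mice above both NO_AG mice.

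Hair follicle genes had 28 of 37 tested and a median log2 change of -0.71 from AG to AG_CPI and -0.84 from NO_AG to AG_CPI, with none called in any comparison. Krt17, a follicle keratin, averaged 20.1 and 22.2 (NO_AG), 31.9 and 34.6 (AG) and 5.44 and 13.6 (AG_CPI). Sox9, a factor of follicle stem cells, averaged 2.11 and 1.98 (NO_AG), 1.99 and 1.40 (AG) and 1.06 and 0.401 (AG_CPI), and Lhx2, another, 1.24 and 1.26 (NO_AG), 1.49 and 0.409 (AG) and 0.579 and 0.840 (AG_CPI). For Krt17 and Sox9 both AG_CPI mice were below the other 4. With single mice left out the list's medians ran from -0.79 to -0.45 and from -1.29 to -0.79 in the same order, and with no filter they were -0.37 and -0.67 over 37 genes. Markers of other cell types found at the follicle were also lowest in those mice. Sebaceous markers summed to 6.58 and 10.54 UMIs per 10000 (NO_AG), 4.17 and 8.42 (AG) and 2.50 and 2.58 (AG_CPI). With no filter their median log2 changes over 7 genes were -1.45 from AG and -1.62 from NO_AG. Melanocyte markers summed to 1.69 and 1.08 (NO_AG), 1.31 and 0.906 (AG) and 0.0485 and 0.358 (AG_CPI), with Pmel and Mlana at 0 UMIs in both AG_CPI mice. Their part in the hair follicle values was not tested.

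Suprabasal genes had 19 of 26 tested and a median of 0.34 from NO_AG to AG, Lgals7 alone called by voom. Without AG 2 that median was -0.06, with 8 of 16 tested genes positive, and without AG 1 it was 0.73. Lgals7, a galectin of stratified epithelium, averaged 48.6 and 45.0 (NO_AG), 89.3 and 164.6 (AG) and 114.0 and 98.2 (AG_CPI). Krtdap averaged 2.14 and 5.26 (NO_AG), 5.55 and 30.8 (AG) and 12.1 and 19.7 (AG_CPI), highest in AG 2.

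Of 17 genes of basal identity and adhesion none passed in any comparison, with medians of -0.06 from NO_AG to AG and 0.40 from AG to AG_CPI. Col17a1, a collagen of hemidesmosomes, averaged 4.63 and 3.74 (NO_AG), 4.54 and 2.36 (AG) and 3.73 and 5.44 (AG_CPI). Itga6 averaged 1.95 and 1.33 (NO_AG), 1.62 and 2.10 (AG) and 3.59 and 1.84 (AG_CPI). The AG and NO_AG mice overlapped in both. Of 29 genes of EGF family and growth signals 16 were tested and none passed. Hbegf and Areg, ligands of the EGF receptor, were too low to test. Hbegf averaged 0.0770 and 0.0758 (NO_AG), 0.0735 and 0.143 (AG) and 0 and 0.165 (AG_CPI). Areg averaged 0.0241 and 0.0221 (NO_AG), 0.0209 and 0.194 (AG) and 0.226 and 0.328 (AG_CPI).

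**Figure D5:**
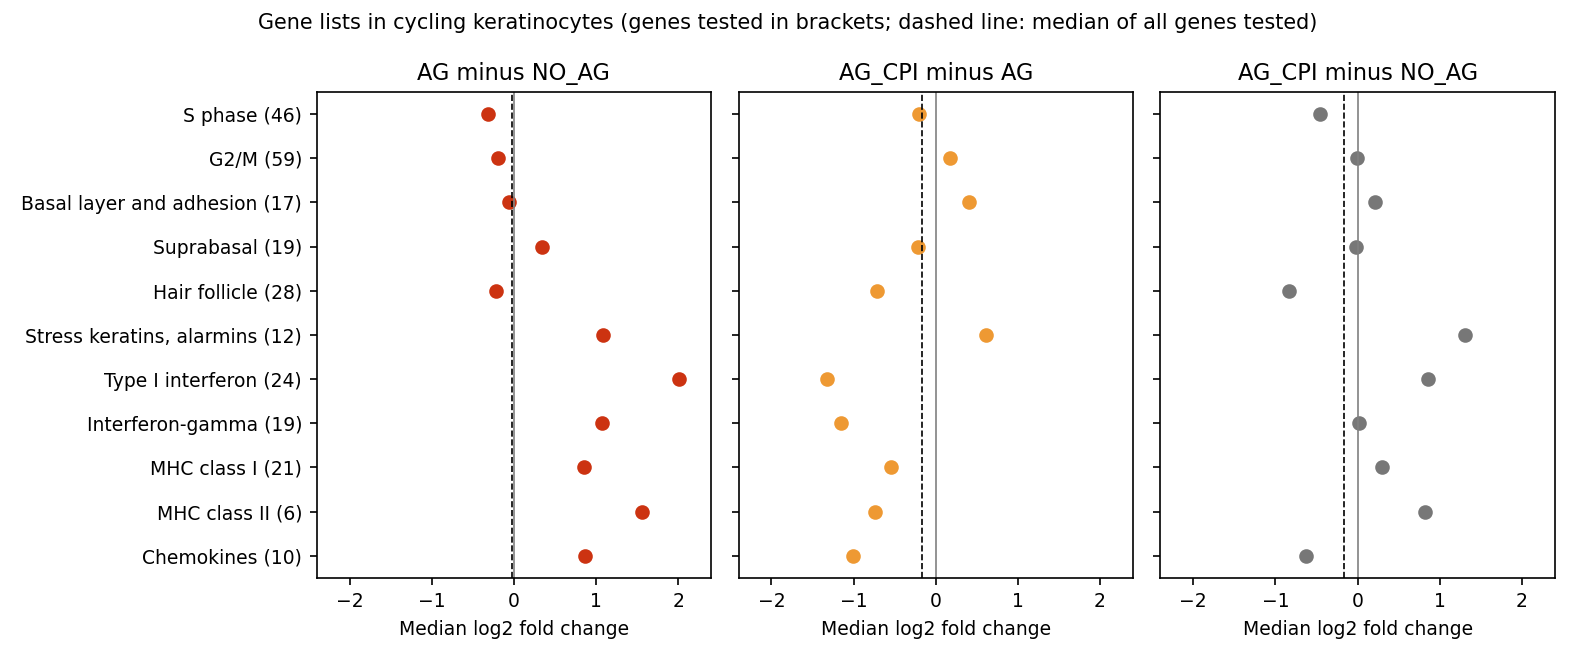
Median log2 fold change of 11 gene lists in cycling keratinocytes (x axis) for the 3 comparisons, with the number of genes tested in brackets and the median of all genes as a dashed line. Only genes past the filter on low values enter, and 12 of the 24 type I genes passed it only with the AG mice. The type I interferon list is at 2.02 from NO_AG to AG and at -1.32 from AG to AG_CPI, while the S phase and G2/M lists lie between -0.46 and 0.18.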

How the data were processed

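The files hold single-cell RNA profiles of skin from 6 mice (10x 5′ kit). Reads were processed with Cell Ranger 3.1 on mm10, per the submitters' processing notes. The deposited values are log10(1 + UMIs per 10000 UMIs of the cell), read from the values since no label states the unit: under log10, 100% of values gave whole UMIs within 0.05 UMI, against 66.9% to 69.8% under a natural log. The files hold 16158 genes, and cells had 1501 to 14995 UMIs. The members and gene lists were chosen with earlier results of these data known.

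Levels per mouse are mean UMIs per 10000 over its cycling cells, scaled by TMM. All 6 mice entered one limma-trend fit (limma 3.58.1, R 4.3.3) on log2(level + 0.1), for genes with at least 10 UMIs and a mean of 0.1 in at least 2 libraries, with Benjamini-Hochberg adjustment at 0.05. The difference of changes was fitted on cycling minus other keratinocytes of each mouse. Shares and summed levels were compared by exact permutation tests over mice (scipy 1.17.1), whose smallest p is 0.333. Limma with voom weights on summed UMIs was an alternative, and the steps were tested on simulated data. Named genes are the called genes with groups that do not overlap (up to 10 per direction, leaving out receptor segments, sex-linked, mitochondrial, ribosomal and rule genes), a fixed set of cell cycle, keratinocyte and interferon genes, and examples from each list. Doublets were left in (Scrublet in scanpy 1.11.5 marked 4, 3 and 2 cycling cells in NO_AG 1, NO_AG 2 and AG 1, and 0 elsewhere). Replicate numbers were not used as pairs: mice of the same number deviated together with correlations of 0.174, 0.0693 and 0.0673 over 7864 genes. The values of 1 gene of the fixed set are not reported here.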

Additional observations from a re-analysis of the deposited data

Results flagged for a closer look

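UMIs of Ddx3y, which lies on the Y chromosome and entered no comparison, were found in keratinocytes of 1 library only. In AG_CPI 1 it had 5 UMIs in the cycling keratinocytes (4 of 14 cells) and 23 UMIs in the other keratinocytes (20 of 145 cells). It had 0 UMIs in the keratinocytes of the other 5 libraries, the antigen-off mice included. Xist, the RNA of the inactive X chromosome, was in 0 of the 14 cycling cells of AG_CPI 1 and in 67.4% to 97.1% of those of the other libraries. The part of this difference in the AG_CPI values was not tested.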

How the results depend on the processing

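The AG_CPI minus NO_AG share turned positive with the wider leukocyte list barred (0.994 points), a keratin sum of at least 100 (0.747), Mki67 or Top2a (2.15) and, chosen after seeing the data, at least 3000 UMIs (0.861) and thinning to 3000 UMIs (0.0462). Leaving out single mice gave -3.72 to 8.34 points for AG minus NO_AG, -10.6 to 1.44 for AG_CPI minus AG and -3.91 to -0.648 for AG_CPI minus NO_AG. S phase sums then ranged over -14.5 to -3.51, -7.12 to 3.89 and -13.4 to -7.90 in the same order, and G2/M sums over -51.2 to 6.76, -19.5 to 38.5 and -27.5 to 2.08. With the leukocyte list barred, which leaves AG_CPI 1 with only 4 cells and out of the fits, the S phase difference between AG_CPI and AG was 0.0977. At a keratin sum of at least 100 the S phase differences were -4.99, -10.7 and -15.7, in the order of comparisons above. The G2/M differences were then -32.6, 8.97 and -23.6.

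Against the 6 genes called in AG against NO_AG, the count was 20 with the leukocyte list barred, 1 at a keratin sum of 100, 0 after thinning to 1500 UMIs, 2 on the deposited scaling, 0 with no filter on low values, 87 with voom and 52 with voom without AG 2, the last chosen after seeing the data. AG_CPI against AG gave 17 with the leukocyte list barred, 1 each at 3000 UMIs, a pseudocount of 0.5 and voom, and 26 with voom without AG 2. AG_CPI against NO_AG gave 57, 409 after thinning (405 lower), 1 with voom and 47 with voom without AG 2. Genes whose change differed between the populations numbered 558 (AG_CPI against AG) and 332 (AG_CPI against NO_AG) with the leukocyte list barred, and 3, 1 and 4 with voom without AG 2. In the leukocyte setting AG_CPI 2 was the only AG_CPI mouse, and leaving out AG_CPI 1 by itself also gave such calls in both comparisons. The cause was not tested. The replicate block gave 17, 2 and 7 calls, and the numbers do not pair the mice. Leaving out single mice gave 0 to 14, 0 to 501 and 0 to 913 calls, and 0 to 0, 0 to 1261 and 0 to 1243 for differing changes. The highest AG_CPI counts came without AG_CPI 2, where the lone AG_CPI mouse is assumed to vary like the other groups. Cxcl9 from NO_AG to AG_CPI was -0.56 at 3000 UMIs. The size of list medians also turned on the pseudocount. With 0.5 in place of 0.1, the type I median from NO_AG to AG was 0.996 and the interferon-gamma median 0.468. The hair follicle median from NO_AG to AG_CPI was then -0.420. Voom gave 3.30 for the type I list from NO_AG to AG. The deposited scaling moved the median of all genes from -0.02 to -0.11 in AG against NO_AG. Thinning to 1500 UMIs moved it from -0.16 to -0.85 in AG_CPI against NO_AG, where 405 lower genes were called, and from -0.16 to -0.73 in AG_CPI against AG. Depth and the 14 and 20 AG_CPI cells limit every value of that group.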

Other observations

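Genes induced when tissue is dissociated into cells were also read in the cycling keratinocytes. All 19 were tested and none passed in limma. Their median log2 change was -0.15 from NO_AG to AG and -0.93 from NO_AG to AG_CPI, and 12 of the 19 had both AG_CPI mice below both NO_AG mice, where 30.9% of all 7864 genes tested did. Of 23 cell death genes 16 were tested and none passed in limma, with 2 called higher in AG by voom, both of which passed the filter on low values only through the AG mice, and medians of 0.19 from NO_AG to AG and 0.05 from NO_AG to AG_CPI. Of 17 chemokine genes 10 were tested, with Cxcl9 the one called in limma. With no filter on low values 13 of the 17 had a positive change from NO_AG to AG, where 6425 of all 13581 genes did. Of the 7 that passed the filter without the AG mice, 4 were positive. In 7 of the 10 tested both AG mice were above both NO_AG mice and in 3 below, where 19.4% and 20.7% of all genes tested were.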
